A study of Mus musculus with 4 samples.

Results

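The 10 genes described here carry a calcium signal from the cell membrane to the nucleus: the store sensors Stim1 and Stim2, the entry channel Orai1, the IP3 receptors Itpr1, Itpr2 and Itpr3, the calcineurin catalytic subunit Ppp3ca, and the transcription factors Nfatc1, Nfatc2 and Nfatc3. They were chosen by gene symbol, and all 10 were found among the 23305 genes with a value. RNA had been sequenced from quiescent follicular B cells of the spleens of female mice, with 2 libraries from wild-type (WT) C57BL/6 mice and 2 from Ets1-/- mice of C57BL/6 x 129Sv background, whose age is not given in the sources used here. Cells of both genotypes had been sorted as B220+ CD23-high CD21-low, negative for CD80 and for IgA, IgE and the IgG isotypes. The genotypes thus also differ in strain, and effects of strain and of the mutation cannot be told apart. The Ets1-/- mutation is carried by every cell of the mouse, not by B cells alone. Ets1-/- mice are described in the study as having no marginal zone B cells and more activated follicular B cells, and the sort was set to take the quiescent ones.

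When the B cell receptor binds antigen, phospholipase C makes the small messenger IP3, which opens IP3 receptors and releases calcium from the endoplasmic reticulum. STIM proteins sense the emptied store and open ORAI channels in the plasma membrane, and the calcium that enters activates the phosphatase calcineurin through calmodulin. Calcineurin removes phosphates from NFAT proteins, which then move into the nucleus and switch on genes of B cell activation and tolerance.

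Expression is given as FPKM, sequenced fragments scaled by the length of the transcript and by the depth of the library, so levels can be compared between genes of different length. From the ratios of very low values the libraries had relative depths of about 0.847 to 1.71, with 1 deeper and 1 shallower library in each genotype. Ets1 itself was at 231 and 275 FPKM in WT and at 229 and 229.8 FPKM in Ets1-/- libraries, and since the targeted allele removes only part of the gene, a value for the whole gene does not check the genotype of a library. Markers of B cells were high in every library, with Cd79a between 1407 and 2051 FPKM. The summed FPKM of 8 neutrophil markers was 111 and 92.3 in WT and 2555 and 699 in Ets1-/- libraries, with 8 of 8 higher in both Ets1-/- libraries than in both WT libraries, and that of 7 erythroid markers was 7.97 and 6.65 against 93.9 and 30.4. The sum of 5 natural killer cell markers was 22.0 and 11.6 in WT and 3.84 and 8.32 in Ets1-/- libraries. The sums overlapped between the genotypes for 10 T cell markers (107 to 139 FPKM), 8 B cell markers (5517 to 6791 FPKM) and 6 platelet markers (2.09 to 3.27 FPKM). Within the T cell list 3 markers were lower and 2 higher without overlap, and Thy1 was called lower, at means of 16.8 FPKM in WT and 3.39 FPKM in Ets1-/- cells. For 8 monocyte and macrophage markers the sum was 65.9 and 32.2 in WT and 152 and 95.8 in Ets1-/- libraries, with 2 of 8 (Lyz2, Emr1) higher without overlap and the other 6 overlapping. For 6 plasma cell markers it was 342 and 404 against 409.9 and 442, with 3 higher and 2 lower without overlap, and for 6 marginal zone B cell markers 208 and 248 against 174 and 105, with 2 of 6 (Cr2, Dtx1) lower and the other 4 overlapping. Under the thresholds given below, 3 of the 8 neutrophil markers (Ngp, Ltf, Camp) and Emr1 were also called, each higher in Ets1-/- cells. Means of Emr1 were 2.49 FPKM in WT and 30.3 FPKM in Ets1-/- cells. No other tested marker was called. Over all genes tested, the values of 22.2% were lower and of 19.4% higher without overlap. No marker was at 0 in all 4 libraries, and the part of other cells in the values below was not tested.

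None of the 10 calcium and NFAT genes reached a 2-fold difference between the genotypes. Of the 10 genes, 0 passed the thresholds, which were a log2 difference of 1 or more in size and an adjusted p no higher than 0.05, while 1.70% of the 10949 genes tested passed them (0.822% lower and 0.877% higher in Ets1-/- cells). All adjusted p-values given here are from limma on log2(FPKM + 1), with the method of Benjamini and Hochberg over all genes tested, and the log2 differences are Ets1-/- minus WT on that scale. Before adjustment 6 of the 10 had a p under 0.05, with 3 higher (Stim1, Itpr1, Itpr2) and 3 lower (Orai1, Nfatc1, Nfatc2) in Ets1-/- B cells, against 13.3% of all genes tested (6.39% higher and 6.95% lower). The genotypes did not overlap for 8 of the 10 genes, 4 in each direction, against 41.6% of all genes (19.4% higher and 22.2% lower). Since the genes were picked with earlier results of these data known, these counts describe the group and do not test it. With a block for replicate number the count of 6 was 2 (Orai1, Nfatc2). With each library left out in turn, all 6 kept their sign. Their log2 differences then ranged from 0.28 to 0.57 for Stim1, 0.29 to 0.46 for Itpr1 and 0.29 to 0.39 for Itpr2. For Orai1 they ranged from -0.81 to -0.41, for Nfatc1 from -0.42 to -0.35 and for Nfatc2 from -1.08 to -0.45. The largest difference from the WT mean was 45.9%, for Nfatc2. As the RNA came from bulk samples, fewer cells that express a gene and less RNA per cell cannot be told apart.

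**Figure D1:**
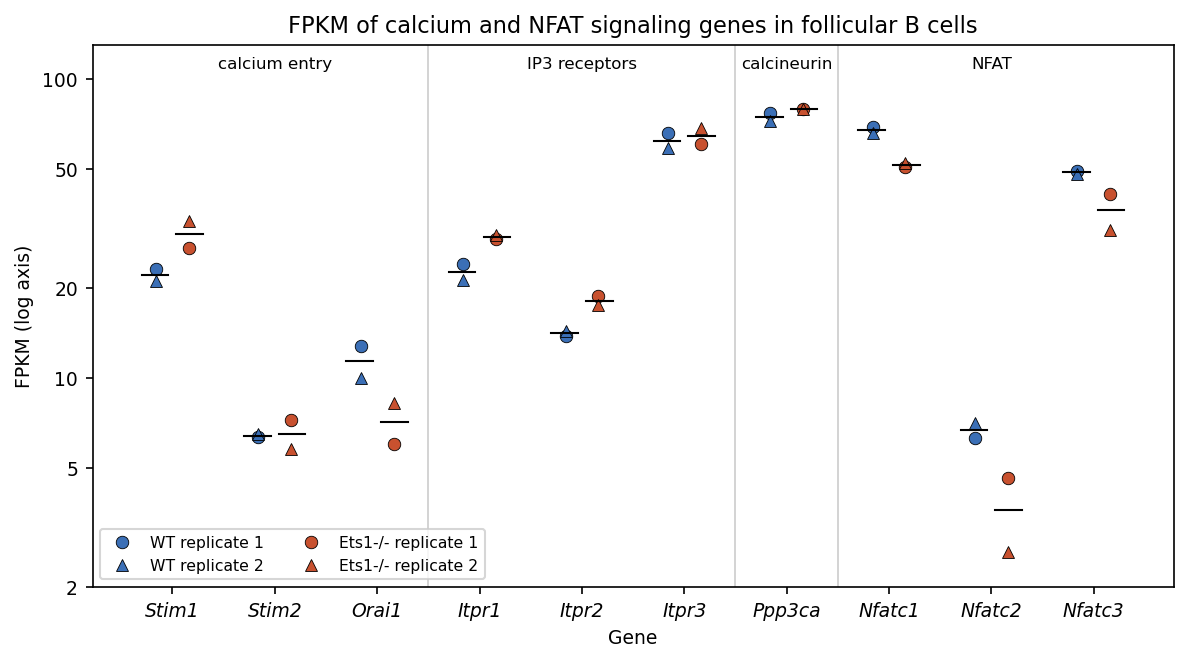
FPKM (log axis) of each gene in each library, with WT in blue, Ets1-/- in red, replicate 1 as circles, replicate 2 as triangles and the genotype mean as a bar. Orai1, Nfatc1, Nfatc2 and Nfatc3 lie lower in both Ets1-/- libraries than in both WT libraries, and Stim1, Itpr1, Itpr2 and Ppp3ca lie higher.

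In WT cells Ppp3ca had the highest mean level of the 10, at 74.5 FPKM, above 89.3% of the genes tested. It was followed by Nfatc1 (67.5 FPKM), Itpr3 (62.2 FPKM) and Nfatc3 (48.7 FPKM). Itpr1, Stim1, Itpr2 and Orai1 came next with means between 22.7 and 11.4 FPKM, and Nfatc2 and Stim2 were lowest, at 6.68 and 6.42 FPKM. The WT libraries of Nfatc1 and Itpr3, of Itpr1 and Stim1, and of Nfatc2 and Stim2 overlapped, so the order within these pairs is not settled. In Ets1-/- cells Ppp3ca was again highest and Nfatc2 lowest, and Itpr3 stood above Nfatc1 without overlap, at means of 64.5 and 51.5 FPKM. Neighbours with overlapping Ets1-/- libraries were Nfatc3 and Stim1, Stim1 and Itpr1, and Orai1 and Stim2. Multiplied by exon length, the values are proportional to the fragments behind them, and these were fewest for Orai1 and most for Itpr3.

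In store-operated calcium entry, the values of Stim1 were higher and those of Orai1 lower in both Ets1-/- libraries, and neither passed the thresholds. Stim1, the sensor in the membrane of the endoplasmic reticulum (chromosome 7 from 109416338 to 109585362 of mm9, plus strand), was at 23.1 and 21.2 FPKM in WT and at 27.2 and 33.4 FPKM in Ets1-/- libraries. Both Ets1-/- values stood above both WT values. The Ets1-/- mean was 1.37 times the WT mean, 30.3 ± 4.40 against 22.1 ± 1.40 FPKM (SD, n = 2 each). On the log2(FPKM + 1) scale the difference was 0.43 (standard error 0.16, 95% interval 0.02 to 0.84), and the adjusted p in limma was 0.348. It was 0.28 without Ets1-/- replicate 2 and 0.57 without Ets1-/- replicate 1.

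Orai1 forms the pore through which calcium enters (chromosome 5 from 123465083 to 123480459, plus strand), and was at 12.8 and 10.02 FPKM in WT and at 6.01 and 8.26 FPKM in Ets1-/- libraries. Here both Ets1-/- values stood below both WT values, and the WT replicates differed from each other by 0.323 on the log2 scale. The WT mean of 11.4 ± 1.96 FPKM was 1.60 times the Ets1-/- mean of 7.14 ± 1.59 FPKM (SD, n = 2 each). For Orai1 the log2 difference was -0.61 (standard error 0.21, 95% interval -1.14 to -0.08), for which limma gave an adjusted p of 0.286. Without Ets1-/- replicate 1 its value was -0.41, and without Ets1-/- replicate 2 its value was -0.81. An exon of Kdm2b on the other strand shares 7 bases with Orai1, or 0.306% of its exon bases, and the library kit does not mark strand.

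Stim2, the paralog that responds to smaller losses of stored calcium (chromosome 5 from 54389762 to 54512296, plus strand), was at 6.34 and 6.49 FPKM in WT and at 7.22 and 5.78 FPKM in Ets1-/- cells. The WT values lay between the Ets1-/- values. Its log2 difference was 0.01 (standard error 0.16, 95% interval -0.40 to 0.42, limma adjusted p 0.995). Stim1 made up 76.5% to 85.2% of the summed STIM FPKM in the 4 libraries.

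The other ORAI channels had higher levels than Orai1. Orai2 was at 42.3 and 36.8 FPKM in WT and 27.7 and 33.1 FPKM in Ets1-/- cells, without overlap, with a log2 difference of -0.37 (standard error 0.16), for which limma gave an adjusted p of 0.436. Orai3 was at 34.4 and 29.4 FPKM in WT and 25.5 and 34.5 FPKM in Ets1-/- cells, which overlapped. Orai1 took 14.3% and 13.2% of the summed ORAI FPKM in WT and 10.2% and 10.9% in Ets1-/- libraries. Orai2 had the largest share in WT replicate 1, WT replicate 2 and Ets1-/- replicate 1, and Orai3 in Ets1-/- replicate 2.

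Read within each library, which cancels any scaling between libraries, the sensor-to-channel ratio stood apart by genotype. Summed STIM FPKM divided by summed ORAI FPKM was 0.329 and 0.363 in WT and 0.581 and 0.516 in Ets1-/- libraries. The ratio of Stim1 to Orai1 was 1.81 and 2.11 in WT and 4.52 and 4.04 in Ets1-/- libraries. Both ratios were chosen after their values were seen, and the exact permutation test of 2 against 2 libraries gave p = 0.333 (two-sided) for each, the smallest it can give.

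Because Ets1 binds DNA through the core letters GGAA, the bases upstream of the annotated start are shown for 2 genes that were lower (Orai1, Nfatc2) and 2 that were higher (Stim1, Itpr2) in Ets1-/- cells, as the context for the values given here. The sequences are from RefSeq, in the GRCm38.p6 build and not the mm9 build of the expression values, and each runs 5′ to 3′ on the strand of its gene over the 250 bases before the start. Capitals mark GGAA, or TTCC where the core lies on the other strand.
Orai1, chr5:123014824-123015073, plus strand: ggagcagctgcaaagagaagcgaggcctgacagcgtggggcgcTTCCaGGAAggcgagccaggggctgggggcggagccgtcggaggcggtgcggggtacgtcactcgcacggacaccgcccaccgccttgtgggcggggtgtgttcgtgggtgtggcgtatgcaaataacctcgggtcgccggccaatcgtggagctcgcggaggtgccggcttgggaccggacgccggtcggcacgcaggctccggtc
Nfatc2, chr2:168601658-168601907, minus strand: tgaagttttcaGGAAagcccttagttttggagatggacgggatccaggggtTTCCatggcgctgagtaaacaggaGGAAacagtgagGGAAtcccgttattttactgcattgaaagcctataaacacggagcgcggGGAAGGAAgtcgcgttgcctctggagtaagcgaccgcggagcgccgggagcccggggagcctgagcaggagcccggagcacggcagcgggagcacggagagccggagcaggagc
Stim1, chr7:102267569-102267818, plus strand: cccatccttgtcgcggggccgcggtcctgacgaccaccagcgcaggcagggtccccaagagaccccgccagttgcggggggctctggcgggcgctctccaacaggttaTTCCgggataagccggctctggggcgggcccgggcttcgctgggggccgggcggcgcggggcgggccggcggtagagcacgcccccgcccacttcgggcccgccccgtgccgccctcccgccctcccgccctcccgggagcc
Itpr2, chr6:146502224-146502473, minus strand: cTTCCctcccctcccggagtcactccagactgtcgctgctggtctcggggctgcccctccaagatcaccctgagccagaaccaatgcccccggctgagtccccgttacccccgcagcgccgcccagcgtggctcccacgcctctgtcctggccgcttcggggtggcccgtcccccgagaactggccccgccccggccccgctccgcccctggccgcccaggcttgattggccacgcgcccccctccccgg

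Windows were found for 7 genes and not for Itpr1, Ppp3ca and Nfatc1. The core occurred 2 times in the window of Orai1, 6 times in that of Nfatc2 shown here and 2 times in that of its other annotated start, and 1 time each in those of Stim1, Itpr2 and Stim2. It occurred 3 times in each of the 2 windows of Nfatc3 and 0 times in that of Itpr3. Of the 2 windows of Nfatc2, the one with more matches is the one shown. A window of this length holds GGAA on either strand in 93.4% of 32851 RefSeq promoters, with a median of 3 matches, so its presence sets none of these genes apart. The longer form CCGGAAG, found in 6.91% of promoters, was in 0 of the 9 windows available for 7 of the 10 genes. GGAAAA, which NFAT proteins can bind and which overlaps the GGAA core, was also in 0 of these 9 windows, against 20.4% of promoters. The promoters compared were not matched for base content. G and C made up 59.6% to 78.4% of the bases of the windows, except 1 window of Nfatc3 at 49.6%. The median over all promoters was 52.4%. The matches are a description of the windows and say nothing of binding.

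Of the IP3 receptors, the calcium release channels of the endoplasmic reticulum, Itpr1 and Itpr2 were higher in Ets1-/- libraries and Itpr3 overlapped. Itpr1 (chromosome 6 from 108163112 to 108501103, plus strand) was at 24.1 and 21.2 FPKM in WT and at 29.2 and 30.0 FPKM in Ets1-/- cells. The Ets1-/- mean of 29.6 ± 0.595 FPKM was 1.31 times the WT mean of 22.7 ± 2.01 FPKM (SD, n = 2 each). This gave a log2 difference of 0.37 (standard error 0.14, 95% interval 0.02 to 0.73, limma adjusted p 0.343).

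Itpr2 (chromosome 6 from 146056821 to 146450745, minus strand) had an FPKM of 13.8 and 14.4 in WT and of 18.8 and 17.5 in Ets1-/- libraries. The replicates of each genotype lay close together and the genotypes did not overlap. The mean went from 14.1 ± 0.436 to 18.2 ± 0.933 FPKM (SD, n = 2 each), 1.29 times the WT mean. On the log2(FPKM + 1) scale the difference was 0.34 (standard error 0.13, limma adjusted p 0.368).

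Itpr3 (chromosome 17 from 27194249 to 27259168, plus strand), the receptor with the highest level in these cells, was at 65.8 and 58.6 FPKM in WT and at 60.6 and 68.4 FPKM in Ets1-/- libraries. The genotypes overlapped, and the log2 difference was 0.05 (standard error 0.15, 95% interval -0.34 to 0.44, limma adjusted p 0.958). An exon on the other strand, of 1700062I23Rik, covers 2.59% of its exon bases. Of the summed IP3 receptor FPKM, Itpr3 took 63.5% and 62.2% in WT and 55.8% and 59.0% in Ets1-/- libraries. The share of Itpr1 was 23.2% and 22.5% in WT and 26.9% and 25.9% in Ets1-/- libraries, again without overlap. The share of Itpr2 was 13.3% and 15.3% against 17.3% and 15.1%, which overlapped. The summed FPKM of the receptors was 104 and 94.2 in WT and 109 and 116 in Ets1-/- libraries.

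**Figure D2:**
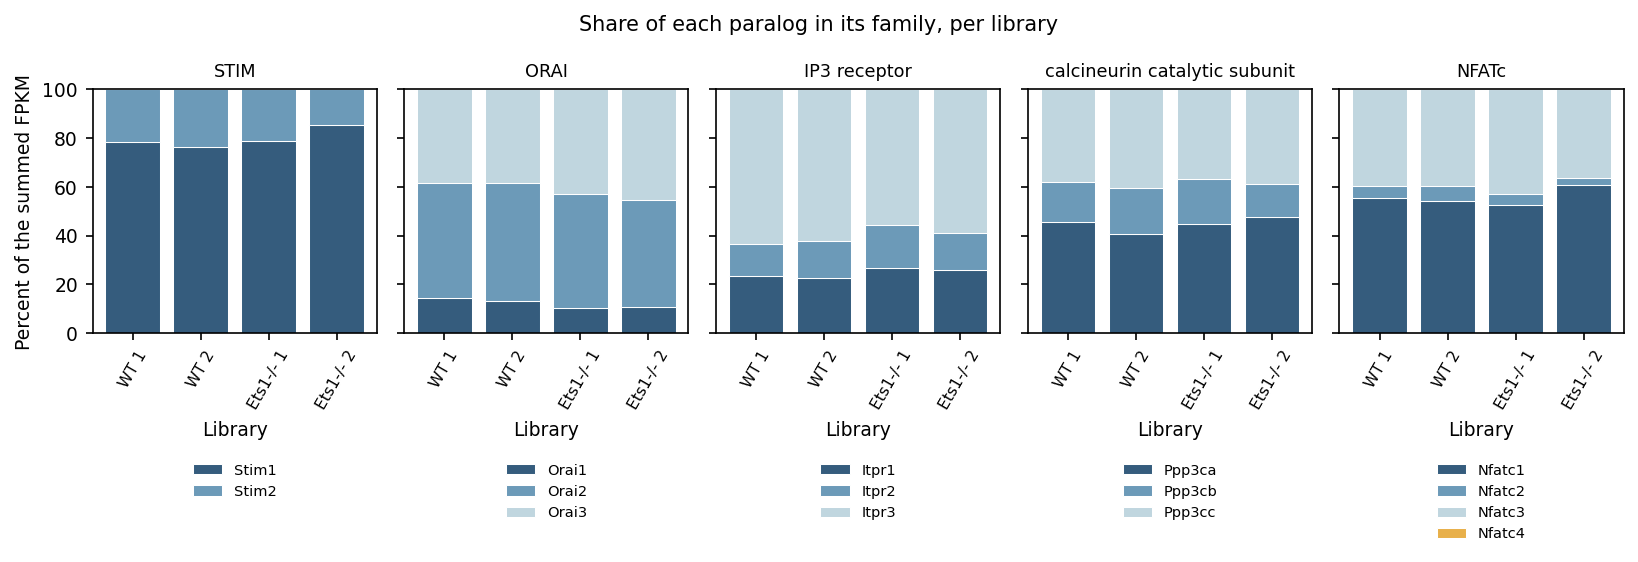
Percent of the summed FPKM of each family taken by each paralog (stacked bars from 0 to 100), with 1 bar per library for STIM, ORAI, IP3 receptor, calcineurin catalytic subunit and NFATc genes. Orai1 is the smallest part of the ORAI sum in every library and Itpr3 the largest part of the IP3 receptor sum, at 62.2% to 63.5% in WT and 55.8% to 59.0% in Ets1-/- libraries.

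No tested calcineurin subunit passed the thresholds. Ppp3ca, the catalytic subunit A alpha (chromosome 3 from 136333088 to 136600691, plus strand), was at 76.9 and 72.2 FPKM in WT and at 79.2 and 79.5 FPKM in Ets1-/- libraries. The genotypes did not overlap, by a gap smaller than the difference between the WT replicates. Its log2 difference was 0.09 (standard error 0.14, 95% interval -0.26 to 0.44, limma adjusted p 0.895). The paralog Ppp3cc was at 64.0 and 72.1 FPKM in WT and 65.3 and 64.4 FPKM in Ets1-/- cells, and Ppp3cb at 27.3 and 33.8 against 32.2 and 22.6 FPKM. Ppp3r1, the regulatory subunit that binds calcium, was at 47.2 and 54.5 FPKM in WT and 56.6 and 44.2 FPKM in Ets1-/- cells. These paralogs and Ppp3r1 overlapped between the genotypes, with adjusted p-values between 0.874 and 0.991 in limma, and Ppp3r2 was listed at 0 in all libraries. The 95% intervals of the log2 differences were -0.73 to 0.40 for Ppp3cb, -0.43 to 0.30 for Ppp3cc and -0.48 to 0.44 for Ppp3r1.

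The values of Nfatc1, Nfatc2 and Nfatc3 were lower in both Ets1-/- libraries than in both WT libraries, as were those of 22.2% of all genes tested, and those of Nfat5 overlapped. None of them passed the thresholds, and Nfatc3 had an unadjusted limma p of 0.0623. Nfatc1 (chromosome 18 from 80802944 to 80909810, minus strand), the NFAT gene with the highest level in these cells, was at 69.3 and 65.8 FPKM in WT and at 50.7 and 52.3 FPKM in Ets1-/- libraries. The gap between the genotypes was wider than the spread within either. The WT mean of 67.5 ± 2.52 FPKM was 1.31 times the Ets1-/- mean of 51.5 ± 1.09 FPKM (SD, n = 2 each). The log2 difference was -0.38 (standard error 0.13, 95% interval -0.73 to -0.04), and the adjusted p in limma was 0.304. Nfatc1 is known to be made as several isoforms from different start sites, which a single value per gene does not separate.

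Nfatc2 (chromosome 2 from 168301910 to 168427157, minus strand), an NFAT protein present in resting lymphocytes, had an FPKM of 6.30 and 7.06 in WT and of 4.62 and 2.62 in Ets1-/- libraries. Its Ets1-/- replicates differed by 0.635 on the log2 scale, the widest replicate difference of the 10 genes. The WT mean of 6.68 ± 0.536 FPKM was 1.85 times the Ets1-/- mean of 3.62 ± 1.41 FPKM (SD, n = 2 each), the largest ratio of the 10. Its log2 difference was -0.77 (standard error 0.25, 95% interval -1.39 to -0.14), and the adjusted p in limma was 0.255. Without Ets1-/- replicate 2 the log2 difference was -0.45 and without Ets1-/- replicate 1 it was -1.08. The 963 tested genes with at least 8000 exon bases, which include Nfatc2 and the IP3 receptors, had a median log2 difference of -0.0858 between the genotypes and of -0.154 between Ets1-/- replicates 2 and 1 (replicate 2 minus replicate 1). For the 9294 other genes with a known length the medians were -0.00765 and 0.065, and the part of length in the value of Nfatc2 was not tested.

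Nfatc3, a further NFAT protein under calcineurin control (chromosome 8 from 108582740 to 108654437, plus strand) was at 49.3 and 48.1 FPKM in WT and at 41.4 and 31.3 FPKM in Ets1-/- libraries. The WT replicates were nearly equal and the Ets1-/- replicates were spread. The mean of 48.7 ± 0.833 FPKM in WT was 1.34 times that of 36.3 ± 7.19 FPKM in Ets1-/- cells (SD, n = 2 each), and the log2 difference was -0.43 (standard error 0.18, 95% interval -0.88 to 0.03, limma adjusted p 0.415). Without Ets1-/- replicate 2 it was -0.23 and without Ets1-/- replicate 1 it was -0.62. An exon of Esrp2 on the other strand covers 3.53% of its exon bases.

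The summed FPKM of Nfatc1, Nfatc2 and Nfatc3 was 125 and 121 in WT and 96.8 and 86.2 in Ets1-/- libraries. This sum was chosen after its values were seen, and the exact permutation test of 2 against 2 libraries gave p = 0.333 (two-sided), the smallest it can give. Nfatc1 held 52.4% to 60.7% of the summed NFATc FPKM, Nfatc3 36.3% to 42.8% and Nfatc2 3.04% to 5.84%, and each share overlapped between the genotypes except that of Nfatc2. The remaining family member Nfatc4 was at most 0.0492 FPKM. Nfat5, the relative that responds to osmotic stress and lacks the calcineurin docking region, was at 12.4 and 14.7 FPKM in WT and at 14.9 and 6.12 FPKM in Ets1-/- libraries. Its genotypes overlapped, with a log2 difference of -0.44 (standard error 0.39, limma adjusted p 0.766).

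**Figure D3:**
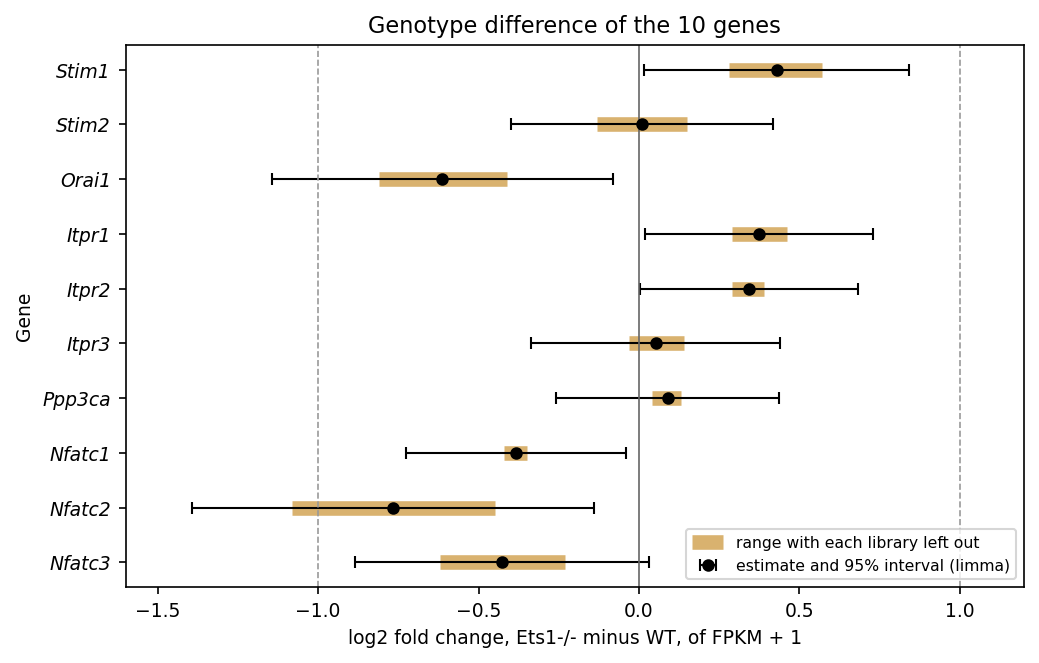
Log2 difference of FPKM + 1 (Ets1-/- minus WT) for each gene, as the limma estimate with its 95% interval (points and bars) and the range when each library is left out in turn (shaded), with dashed lines at -1 and 1. Every estimate lies between -0.77 and 0.43, and the ranges of Stim2 and Itpr3 cross 0.

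The rest of the pathway was read from 12 lists of 97 genes, of which 96 were found and 74 had a mean of at least 1 FPKM in either genotype and were tested. None, 0 of 74, passed both thresholds in limma, against 1.70% of all genes tested. Before adjustment 10 of the 74 (13.5%) had a p under 0.05, which is near the 13.3% of all genes, with 6 lower and 4 higher in Ets1-/- cells. No overlap between the genotypes was found for 32 of the 74 (43.2%), against 41.6% of all genes, and the median log2 difference of the 74 was -0.05, against -0.02 for all genes. By list, the values without overlap were 5 lower and 0 higher of 9 tested ion channels, 3 and 0 of 6 pumps and exchangers, 3 and 2 of 9 calmodulin genes and kinases, and 0 and 2 of 5 mitochondrial uniporter genes. They were 3 lower and 2 higher of 10 genes of IP3 production and removal, 2 and 0 of 5 genes of store-operated entry, 1 and 1 of 5 release channel genes, and 0 and 0 of 3 calcineurin subunits. The other lists had 1 and 1 of 6 calcineurin inhibitors and anchors, 1 and 0 of 3 NFAT partners and relatives, 1 and 1 of 8 NFAT export kinases, and 1 and 2 of 5 activation genes. Of all genes tested, 22.2% were lower and 19.4% higher without overlap. With a block for replicate number, 8 pathway genes had an unadjusted limma p under 0.05.

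**Figure D4:**
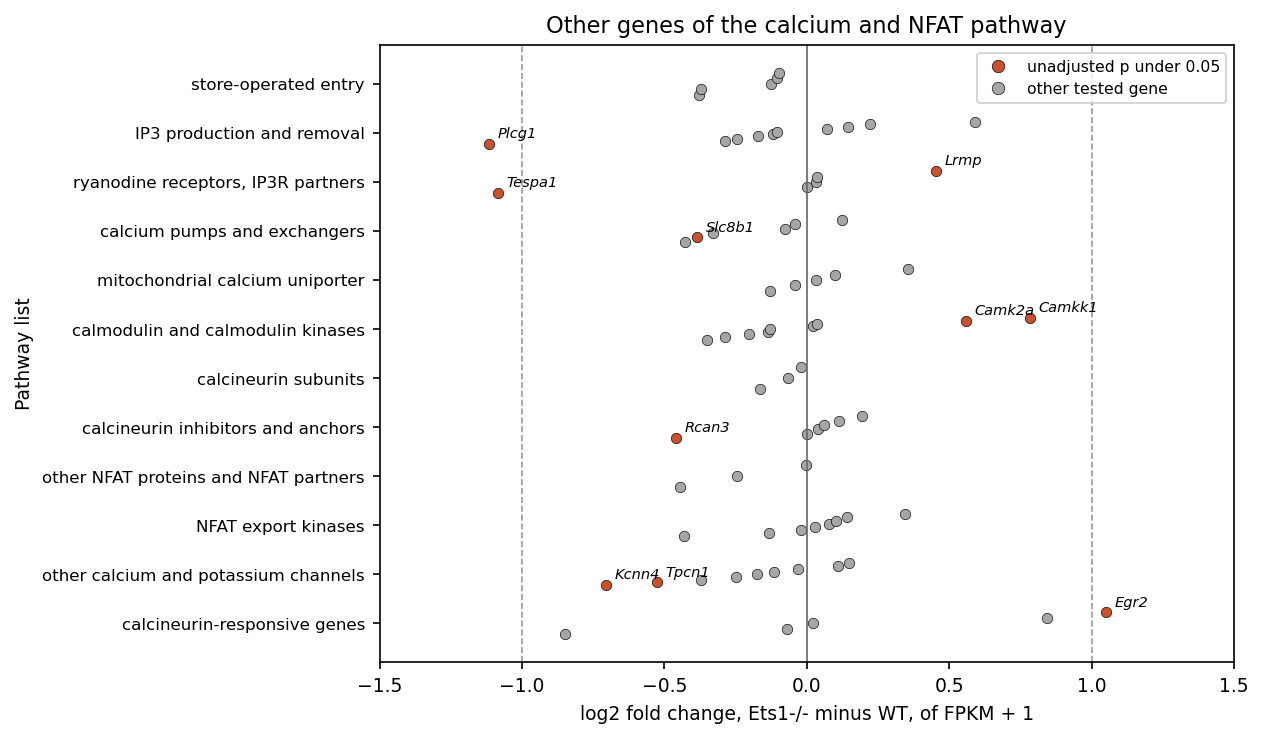
Log2 difference of FPKM + 1 (Ets1-/- minus WT) of the 74 tested pathway genes by list, with genes at an unadjusted p under 0.05 in red and named, and dashed lines at -1 and 1. The named genes run from Plcg1 at -1.11 to Egr2 at 1.05. Naming followed p and not size, and unnamed genes reach -0.85 (Irf4) and 0.84 (Nr4a2).

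Upstream of the IP3 receptors, Plcg1 was the gene nearest to a call. Plcg1, a phospholipase that makes IP3, was at 11.4 and 9.90 FPKM in WT and at 3.78 and 5.04 FPKM in Ets1-/- libraries, without overlap. The log2 difference of Plcg1 was -1.11 (standard error 0.18) and the limma adjusted p of 0.0615 missed the threshold. With robust variance estimation Plcg1 passed, at an adjusted p of 0.0217 from limma. It also passed, at a limma adjusted p of 0.000814, with replicate 1 of each genotype paired with replicate 2 of the other. That pairing was added after seeing the data, and Plcg1 passed under no other alternative. Over all alternatives its log2 difference ranged from -1.28 to -0.946. Plcg2, the phospholipase C known as the main form in B cells, was at 121 and 107 FPKM in WT and at 115 and 154 FPKM in Ets1-/- libraries, which overlapped, and was named after its values were seen.

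Of the 5 tested release channel partners and ryanodine receptors, 3 overlapped between the genotypes, and Tespa1 and Lrmp did not. That is 40.0% without overlap, near the 41.6% of all genes tested. Tespa1, which links IP3 receptors to antigen receptor signaling in T cells, was at 28.9 and 29.0 FPKM in WT and at 16.9 and 10.1 FPKM in Ets1-/- libraries, with a log2 difference of -1.09 (standard error 0.25), for which limma gave an adjusted p of 0.134. Without Ets1-/- replicate 1 its log2 difference was -1.43, and over all alternatives it ranged from -1.43 to -0.743. Of the alternatives that kept all 4 libraries, Tespa1 passed only with the pairing added after seeing the data (limma adjusted p 0.00286). Lrmp, a membrane protein of the endoplasmic reticulum of lymphocytes that binds IP3 receptors, was at 152 and 129.5 FPKM in WT and at 181 and 204 FPKM in Ets1-/- libraries (log2 difference 0.45, limma adjusted p 0.345).

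Among ion channels and exchangers the named genes were all lower in Ets1-/- cells. Kcnn4, a potassium channel opened by calcium that keeps calcium entry going, was at 12.3 and 11.9 FPKM in WT and at 6.93 and 7.12 FPKM in Ets1-/- libraries, with a log2 difference of -0.71 (standard error 0.13), for which limma gave an adjusted p of 0.0847. The replicates of Kcnn4 were close in both genotypes. Tpcn1, a channel of endosomes and lysosomes, went from 8.37 and 8.52 FPKM to 5.53 and 5.58 FPKM, and Slc8b1, the mitochondrial sodium-calcium exchanger listed under its older symbol Slc24a6, from 9.13 and 8.88 FPKM to 6.99 and 6.36 FPKM. Their adjusted p-values were 0.165 and 0.322 in limma.

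Of the calmodulin kinases, Camkk1 was at 2.13 and 2.63 FPKM in WT and at 5.08 and 4.52 FPKM in Ets1-/- libraries, 2.02 times the WT mean. Its log2 difference of 0.78 (standard error 0.16) gave an adjusted p of 0.109 in limma. Camk2a was low throughout, at 0.627 and 0.540 FPKM in WT and 1.32 and 1.35 FPKM in Ets1-/- libraries (limma adjusted p 0.201). Among calcineurin inhibitors Rcan3 was at 2.29 and 2.30 FPKM in WT and at 1.29 and 1.51 FPKM in Ets1-/- libraries, and the adjusted p in limma was 0.278. Of the 8 kinases that phosphorylate NFAT, 0 had an unadjusted limma p under 0.05, against 13.3% of all genes tested. Their log2 differences lay between -0.43 and 0.34.

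Genes known to respond to calcineurin after B cell receptor stimulation did not share a direction. Egr2, a transcription factor of lymphocyte activation and tolerance, was at 4.86 and 9.20 FPKM in WT and at 19.4 and 11.6 FPKM in Ets1-/- libraries. Its log2 difference of 1.05 (standard error 0.36) gave an adjusted p of 0.288 in limma, and the replicates of both genotypes were spread. With replicate 1 of each genotype paired with replicate 2 of the other, a pairing added after seeing the data, Egr2, Plcg1 and Tespa1 were the 3 pathway genes called. Of the other 4 tested genes of this list, 0 had an unadjusted p under 0.05, and the log2 differences of the whole list ran from -0.85 to 1.05.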

How the data were processed

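RNA of sorted follicular B cells was sequenced from 2 WT and 2 Ets1-/- libraries. The authors deposited 1 table of FPKM values per library. The submitters' processing notes name TopHat2 2.0.13, Cuffdiff and mm9. The annotation and any further scaling are not given in the sources used here. Of 23309 entries per table, 4 with repeated symbols were left out. Positions, exon lengths and exon overlaps were taken from GENCODE M1 of mm9. The test was limma 3.58.1 under R 4.3.3 (eBayes with a trend, genotype only, adjustment of Benjamini and Hochberg) on log2(FPKM + 1). It was run over the 10949 genes whose WT or Ets1-/- mean reached 1 FPKM. A check on simulated data was judged on the size of the estimates alone, so it does not bear on missed or false calls. Changes given as log2 are on this scale, which understates those of low genes. Python 3.11.15, pandas 2.3.3 and scipy 1.17.1 gave the other values. The replicates are called biological in the methods, which do not say whether each is 1 animal, so p-values measure the spread between these samples. The genes, the pathway lists, the marker lists and the tests were chosen with earlier results of these data known. Named are the 10 genes, their paralogs, and pathway genes called or with an unadjusted p under 0.05. Named besides are Plcg2, Irf4, Nr4a2 and genes below the expression filter. The alternatives were a pseudocount of 0.1, no filter, a replicate block, quantile and upper-quartile scaling, robust variance estimation and the omission of each library in turn. A crossed replicate block was added after seeing the data. No read counts are part of the tables, so count tests were not run.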

Additional observations from a re-analysis of the deposited data

How the results depend on the processing

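Over 11 alternatives, 8 of the 10 genes kept the sign of their log2 fold change and none was called. The sign of Stim2 and of Itpr3 was not settled: with each library left out in turn their log2 fold changes ranged from -0.13 to 0.15 and from -0.03 to 0.14. Of all genes 186 were called, 75 with every gene above 0 in any library tested, 305 with robust variance estimation and 266 with the replicate block. Of the pathway genes 0 were called, and 1 (Plcg1) with robust variance estimation. The number of the 10 genes with an unadjusted p under 0.05 fell from 6 to 2 (Orai1, Nfatc2) with the replicate block, and ranged from 1 to 5 with each library left out, while that of pathway genes, 10, ranged from 4 to 19. No source ties same-numbered replicates together. The deviations of same-numbered replicates from their genotype means were only weakly opposed (correlation across genes -0.207). With the crossed replicate block, added after seeing the data, 409 genes, 3 pathway genes (Egr2, Plcg1, Tespa1) and 0 of the 10 genes were called. This block joins WT replicate 1 with Ets1-/- replicate 2 (relative depths 1.0 and 0.847) and WT replicate 2 with Ets1-/- replicate 1 (1.71 and 1.62). It thus coincides with depth, and the part of depth was not tested. Under that block 20 pathway genes and 7 of the 10 had an unadjusted p under 0.05, and 2 of the 10 (Orai1, Nfatc2) had an adjusted p under 0.05 in limma but stayed under 2-fold. The cause of these shifts was not tested. When a genotype was left with 1 library, that library was assumed to vary like the other genotype. Differences under 2-fold could not be called by definition.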

Other observations

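Below the expression filter, 2 calcium genes chosen after their values were seen were lower in both Ets1-/- libraries. Ryr2, a ryanodine receptor known as the calcium release channel of the heart, was at 0.743 and 0.511 FPKM in WT and at 0.105 and 0.0677 FPKM in Ets1-/- libraries. Camk2b, a calmodulin-dependent kinase, was at 0.753 and 0.521 FPKM in WT and at 0.0749 and 0.0846 FPKM in Ets1-/- libraries. Neither Ryr2 nor Camk2b was tested in the main fit, since both means were under 1 FPKM. With no filter both were tested, and neither was called. Of the 22 pathway genes not tested in the main fit, Camk1, Atp2b4, Atp2b2 and Rcan2 were higher in both Ets1-/- libraries. Mcub (listed as Ccdc109b), Mrvi1 and Nr4a3 were also lower, and the others overlapped or were at 0. The share over all genes below the filter was not taken.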
